A study of Mus musculus with 8 samples.

Results

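The 39 Hox genes of the mouse were followed through single-cell RNA sequencing of sorted cells from 2 visceral tissues, the mesentery and the epididymal fat pads, in mice fed normal chow or a high fat diet. Members were all genes whose symbol is Hoxa, Hoxb, Hoxc or Hoxd followed by digits alone, with antisense and other noncoding transcripts kept apart. The rule gave 11 Hoxa, 10 Hoxb, 9 Hoxc and 9 Hoxd genes of the 30406 genes that the gene lists of both sequencing runs share, and all 39 were matched between the lists by Ensembl identifier. In GRCm38 the Hoxa cluster lies on chromosome 6 from 52155590 to 52260880 on the minus strand. The Hoxb cluster (chromosome 11, 96194316 to 96368256), the Hoxc cluster (chromosome 15, 102921103 to 103036852) and the Hoxd cluster (chromosome 2, 74668310 to 74765142) are on the plus strand.

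All animals were male and carried ROSA26-eYFP+/+ and Cdh5-CreERT2+. Cdh5 is the vascular endothelial cadherin, so the driver marks with YFP the cells that used its promoter when tamoxifen was given, and the sort took YFP-positive cells. Tamoxifen food was given to every animal for 2 weeks from 6 weeks of age, and from 8 weeks of age the animals received chow with 5.8% fat or a diet with 60% fat for 12 to 13 weeks. Each library pooled tissue of 6 mice, and actinomycin D, which blocks transcription, was present during dissection and digestion. The 4 groups (mesentery or adipose, chow or high fat) have 2 libraries each, one in each of 2 independent repeats of the experiment, called run A and run B here. With pooled animals, the spread between libraries is the spread between pools and runs, not between mice.

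Hox genes encode homeodomain transcription factors. Along each chromosomal cluster the paralogue number runs from the genes first used toward the head of the embryo (low numbers) to those used toward the tail (high numbers), and adult cells from different body positions often keep part of that pattern. Hox proteins bind DNA together with cofactors of the TALE class, the Pbx and Meis proteins, and their clusters are held silent by Polycomb proteins and opened in the embryo by retinoic acid and Cdx factors. In blood vessels Hoxa5 and Hoxd10 are known mainly from cultured endothelium, where they have been tied to a quiescent state, and Hoxa9 from endothelial activation.

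The 8 libraries held 27944 barcodes, of which 23970 passed the filters. After 763 called doublets were removed (3.18%), 23207 cells in 27 clusters were used, and 17654 of them lay in clusters with endothelial markers. Endothelial cells numbered 680 to 1310 in the run A libraries and 2396 to 4194 in those of run B, with a median of 3478.5 UMIs, unique molecular identifiers that count captured transcripts, per cell over all. The 10 endothelial markers summed to between 7664 and 10348 CPM, counts scaled to a common library total, in endothelial cells, and all 10 were detected in every library. Classes are named "-like" after markers, and the limits behind the names were chosen once the clusters were known. Lymphatic-like cells were 25.7% to 57.8% of endothelial cells in run A and 4.15% to 8.34% in run B, and capillary-like cells 3.59% to 16.7% in run A and 24.9% to 49.0% in run B, so levels over all endothelial cells carry that shift. Counts of all cells of a class were summed per library. Levels are CPM of those sums, and every test is within a gene. A UMI counts 1 captured 3′ end, so no scaling by length applies, but capture can differ between genes. Sums over genes, orders of genes by level and the mean paralogue number are therefore descriptions that carry such differences. In such sums, fewer cells with the transcript and fewer transcripts per cell cannot be told apart. Barcodes shared between any pair of libraries were at most 0.31% of the smaller library.

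Endothelial cells of both tissues carried an abundant and broad Hox repertoire. Hox transcripts summed to a median of 545 CPM over the 8 libraries (484 to 649), and 75.9% of endothelial cells had at least 1 Hox UMI (95% exact binomial interval 75.3 to 76.6). The interval covers counting error only and not the spread between libraries. By library the share ran from 48.9% (chow adipose, run A) to 85.9% (chow adipose, run B). Thinned to 1000 UMIs per cell it ran from 37.1% (chow mesentery, run A) to 46.4% (chow adipose, run B). Macrophage-like cells, with a deeper median of 11666.5 UMIs, had a Hox UMI in 17.8% of cells, T cell-like cells in 6.51% and B cell-like cells in 4.47%. Thinned to 1000 UMIs per cell, the share was 42.8% in endothelial cells against 2.05% in macrophage-like, 2.49% in T cell-like and 2.25% in B cell-like cells, and 1804 endothelial cells and 6, 29 and 25 of the others were too shallow to be thinned. The immune shares were not even over libraries. Before thinning, 34.4% of 32 macrophage-like cells of chow adipose run B had a Hox UMI, and 16.3% of 541 of high fat adipose run B. The part of RNA free in the cell suspension in any of these shares was not tested. Among the classes the thinned shares were 46.1% in arterial-like, 41.8% in capillary-like, 45.2% in venous-like and 40.0% in lymphatic-like cells, and 49.6% in fibroblast-like and 47.3% in mural-like cells (pericytes and smooth muscle that passed the sort). A single endothelial cell held transcripts of up to 17 members.

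In endothelial cells Hoxb genes gave a median of 265 CPM over libraries, Hoxa genes 167 CPM, Hoxd genes 140 CPM and Hoxc genes 3.32 CPM. Hoxc made up at most 3.67% of Hox transcripts in any endothelial library, whereas in fibroblast-like cells it made up 33.3% to 55.9%. No UMI at all was found in endothelial cells for Hoxb1, Hoxc11, Hoxc12, Hoxc13, Hoxd11, Hoxd12 and Hoxd13, and 1 or 2 UMIs for Hoxa11, Hoxa13, Hoxb13 and Hoxd1. The members at or near 0 are therefore the tail-most genes of all clusters together with Hoxb1 and Hoxd1 at the head end. The mean paralogue number of Hox transcripts, which weights each member by its level, was between 6.13 and 7.32 in the 8 libraries, and both extremes came from mesentery.

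Hoxa7, a central Hoxa gene, was the one Hox gene of endothelial cells whose tissues did not overlap. In mesentery it was at 79.2 (chow, run A), 79.1 (chow, run B), 90.3 (high fat, run A) and 78.7 CPM (high fat, run B). In adipose it was at 97.2 (chow, run A), 100.2 (chow, run B), 118.1 (high fat, run A) and 97.7 CPM (high fat, run B). All 4 mesentery libraries were thus below all 4 adipose libraries, which held for 1 of the 28 Hox genes with a UMI in at least 4 libraries, and for 0.747% of all genes so detected. Counted in either direction, the share without overlap was 3.57% of these Hox genes and 2.61% of all such genes, so 1 member is near the general share. The log2 difference, mesentery minus adipose, was -0.34 ± 0.15 (SE) and did not pass the test (edgeR, Benjamini-Hochberg adjusted p = 1.00). With the run as a block the difference was -0.34 ± 0.10, again short of the threshold (edgeR with block, adjusted p = 0.26). It was negative in every fit that left out a library, from -0.41 to -0.27.

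Hoxa5, the other Hoxa gene among the 8 given in full, stood at 54.5, 38.3, 21.3 and 32.5 CPM in mesentery (chow A, chow B, high fat A, high fat B). In adipose it stood at 50.1, 30.9, 42.7 and 27.5 CPM in the same order. The ranges of the tissues overlapped over most of their length, and run A was above run B in 3 of 4 groups. The tissue difference was -0.09 ± 0.31 on the log2 scale (edgeR, adjusted p = 1.00), smaller than its standard error.

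**Figure D1:**
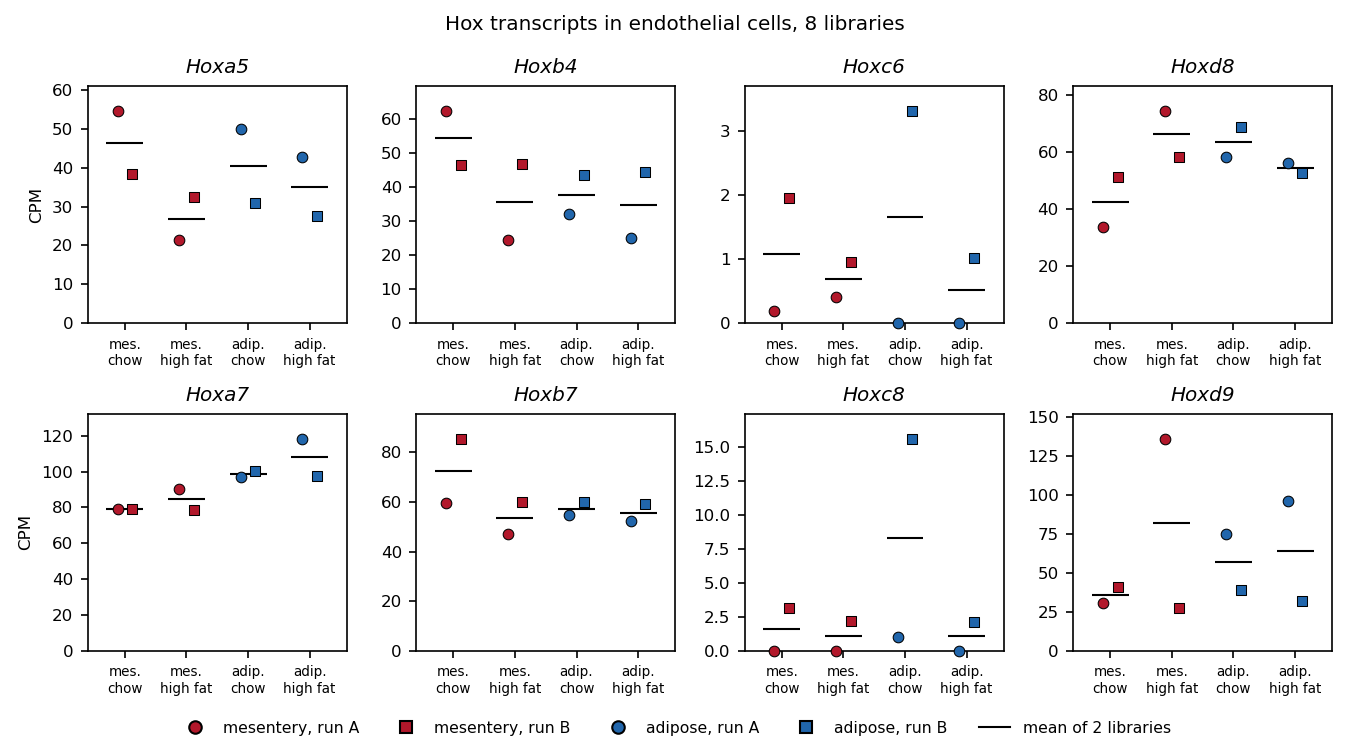
CPM of summed endothelial counts for the 8 Hox genes given in full (1 panel each, 2 genes per Hox cluster) in 4 groups, with circles for run A, squares for run B and a bar for the mean of the 2 libraries. Hoxa7 lies between 78.7 and 90.3 CPM in mesentery and between 97.2 and 118.1 CPM in adipose, while the other 7 genes overlap between tissues.

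Hoxb7 and Hoxb4 are the Hoxb genes given in full. Hoxb7 was at 59.4, 85.3, 47.0 and 59.8 CPM in mesentery and 54.6, 59.9, 52.2 and 59.0 CPM in adipose (chow A, chow B, high fat A, high fat B). One library, chow mesentery of run B, was above all the others, and the remaining 7 lay within 47.0 to 59.9 CPM. Hoxb4 was at 62.3, 46.7, 24.5 and 46.7 CPM in mesentery and 32.1, 43.5, 25.1 and 44.5 CPM in adipose. The 4 libraries of run B were alike to within 43.5 to 46.7 CPM, and the spread of this gene came from run A.

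Hoxc8 and Hoxc6, the Hoxc genes given in full, were close to 0 in most libraries. Hoxc8 was at 0, 3.15, 0 and 2.15 CPM in mesentery and at 1.00, 15.6, 0 and 2.11 CPM in adipose. Chow adipose of run B stood apart from the other 7 libraries. Hoxc6 ranged from 0 to 3.30 CPM, highest in the same library. Adipocyte markers moved with these values. The 7 listed (Adipoq, Plin1 and others) summed to 3657 CPM in endothelial cells of chow adipose run B and 1329 CPM in those of chow mesentery run B, and to between 1.6 and 154 CPM in the other 6 libraries. Their part in the Hoxc levels was not tested.

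Hoxd9 and Hoxd8 are the Hoxd genes given in full. Hoxd9 was at 30.95, 41.2, 135.7 and 27.7 CPM in mesentery and at 74.7, 38.7, 96.0 and 31.7 CPM in adipose. The highest value belonged to high fat mesentery of run A, where lymphatic-like cells were 57.8% of endothelial cells, and the run B values of all groups lay within 27.7 to 41.2 CPM. Hoxd8 was at 33.7, 51.3, 74.3 and 58.3 CPM in mesentery and at 58.1, 68.9, 56.3 and 52.6 CPM in adipose, with full overlap of the tissues.

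Over both diets, 24 Hox genes entered the tissue test in endothelial cells and none was called at an adjusted p under 0.05 (edgeR quasi-likelihood test), where the share called among all 13127 genes was 0 as well. None of the 24 had an unadjusted p under 0.05 in this fit. With the run as a block the share of all genes called was 0.518%, again with no Hox gene among them. In that fit 4 of 24 (Hoxa7, Hoxc8, Hoxb8 and Hoxa10) had an unadjusted p under 0.05. The share of all genes with such a p is not given for this comparison alone. Over the 18 comparisons of endothelial cells and their classes it was 6.92% of all tests with the block. The median log2 difference was -0.06 over the 24 and -0.01 over all genes tested. By position along the clusters, the median was 0.05 over 9 genes of paralogue groups 1 to 4, -0.18 over 10 genes of groups 5 to 8 and -0.04 over 5 genes of groups 9 to 13. With the block the last of these turned to 0.34, and the others were 0.04 and -0.19. On chow alone and on high fat alone the count of Hox genes called was also 0. The background was 0 in both without the block, and 0.548% on chow and 0 on high fat with it.

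Diet left the endothelial Hox genes without a call in either tissue. None of 24 passed in mesentery (background 0 without the block and 0.0457% with it) or in adipose (0 and 0.00762%), and none had a diet difference that itself differed between the tissues (0 and 0). Unadjusted p-values under 0.05 were found without the block for 3 genes in mesentery and 0 in adipose. The share of all genes with such a p is not given for these comparisons alone. Without the block it was 1.85% of all tests over the 18 comparisons of endothelial cells and their classes. In mesentery the median log2 difference, high fat minus chow, was -0.32 over the Hox genes and -0.01 over all genes. The 3 genes with an unadjusted p under 0.05 there were Hoxb9 (-1.23 ± 0.33), Hoxa10 (-1.83 ± 0.60) and Hoxd8 (0.64 ± 0.25). None of them passed the adjustment (edgeR, adjusted p = 1.00 for each). Hoxb9 was at 42.4 and 34.4 CPM on chow (runs A and B) and at 12.4 and 20.5 CPM on high fat in mesentery. In adipose Hoxb9 was at 31.6 and 31.1 CPM on chow and 32.2 and 25.4 CPM on high fat. The make-up of mesenteric endothelial cells also differed between the diets. Lymphatic-like cells, in which Hoxb9 was not detected, rose in run A from 25.7% (chow) to 57.8% (high fat). In run B they fell from 8.34% to 5.43%. Venous-like cells, the class with the highest median Hoxb9, fell in both runs, from 46.8% to 12.8% (A) and from 24.1% to 17.8% (B). The arterial-like and capillary-like shares rose in both runs. The part of these shifts in the Hoxb9 values was not tested.

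The clearest difference among endothelial classes lay between lymphatic-like cells and the classes of blood vessels. Lymphatic endothelium is the lining of the vessels that drain tissue fluid and is set by the factor Prox1. Hoxd genes summed to 218 to 391 CPM in the 8 lymphatic-like sums, above the 53.0 to 171 CPM in arterial-like, 48.8 to 134 CPM in capillary-like and 18.6 to 118 CPM in venous-like ones. Hoxb genes summed to 71.8 to 182 CPM in lymphatic-like cells and to 189 to 364 CPM in arterial-like ones. In capillary-like (131 to 328 CPM) and venous-like cells (164 to 378 CPM) the Hoxb sums overlapped with the lymphatic-like range. The mean paralogue number was between 6.79 and 7.89 in lymphatic-like cells and between 5.76 and 6.67 in the 3 blood classes, with no overlap. These class levels are a description without a test, because the classes are clusters of the same cells, although Hox genes and Hox cluster noncoding transcripts took no part in the clustering.

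Hoxb9, a tail-side Hoxb gene, had no UMI in lymphatic-like cells in any of the 8 libraries. It was at 33.1 to 63.6 CPM in arterial-like cells, 13.2 to 39.3 CPM in capillary-like cells and 23.8 to 84.0 CPM in venous-like cells. Counted over all libraries together, and with 3 counts as the most that a count of 0 allows there, Hoxb9 was at least 113-fold lower in lymphatic-like than in arterial-like cells and at least 148-fold lower than in venous-like cells. Hoxb2 had 10 UMIs in lymphatic-like cells, a pooled level of 1.35 CPM, against 29.9 CPM in arterial-like cells, and was lower in lymphatic-like cells in 7 of 8 libraries and at 0 in both in the other. Hoxa5 was at 3.80 to 22.3 CPM in lymphatic-like cells and at 30.97 to 98.2 CPM in arterial-like cells, lower in 8 of 8 libraries against each of the blood classes.

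Hoxd8, Hoxd9 and Hoxd10, 3 neighbours on chromosome 2, went the other way. Hoxd10 was at 20.7 to 64.8 CPM in lymphatic-like cells and at no more than 4.0 CPM in arterial-like, capillary-like or venous-like cells. Its pooled level was 34.8-fold that of arterial-like cells, from 260 and 15 UMIs. Hoxd9 was at 107.7 to 215.5 CPM in lymphatic-like cells and at 14.4 to 50.9 CPM in arterial-like, 13.1 to 43.8 CPM in capillary-like and 1.7 to 23.7 CPM in venous-like cells. Hoxd8 was at 76.2 to 119.2 CPM in lymphatic-like cells, higher than each blood class within 8 of 8 libraries, though its ranges overlapped with arterial-like cells (25.8 to 84.6 CPM). Both lymphatic clusters, the one led by Reln, Ccl21a and Lyve1 and the one led by Nts and Ackr4, had these levels: pooled Hoxd9 was 146.7 and 137.7 CPM and pooled Hoxd10 29.4 and 47.7 CPM. Hoxa7 was nearly level, at 88.5 to 120.2 CPM in lymphatic-like and 72.9 to 123.7 CPM in arterial-like cells.

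**Figure D2:**
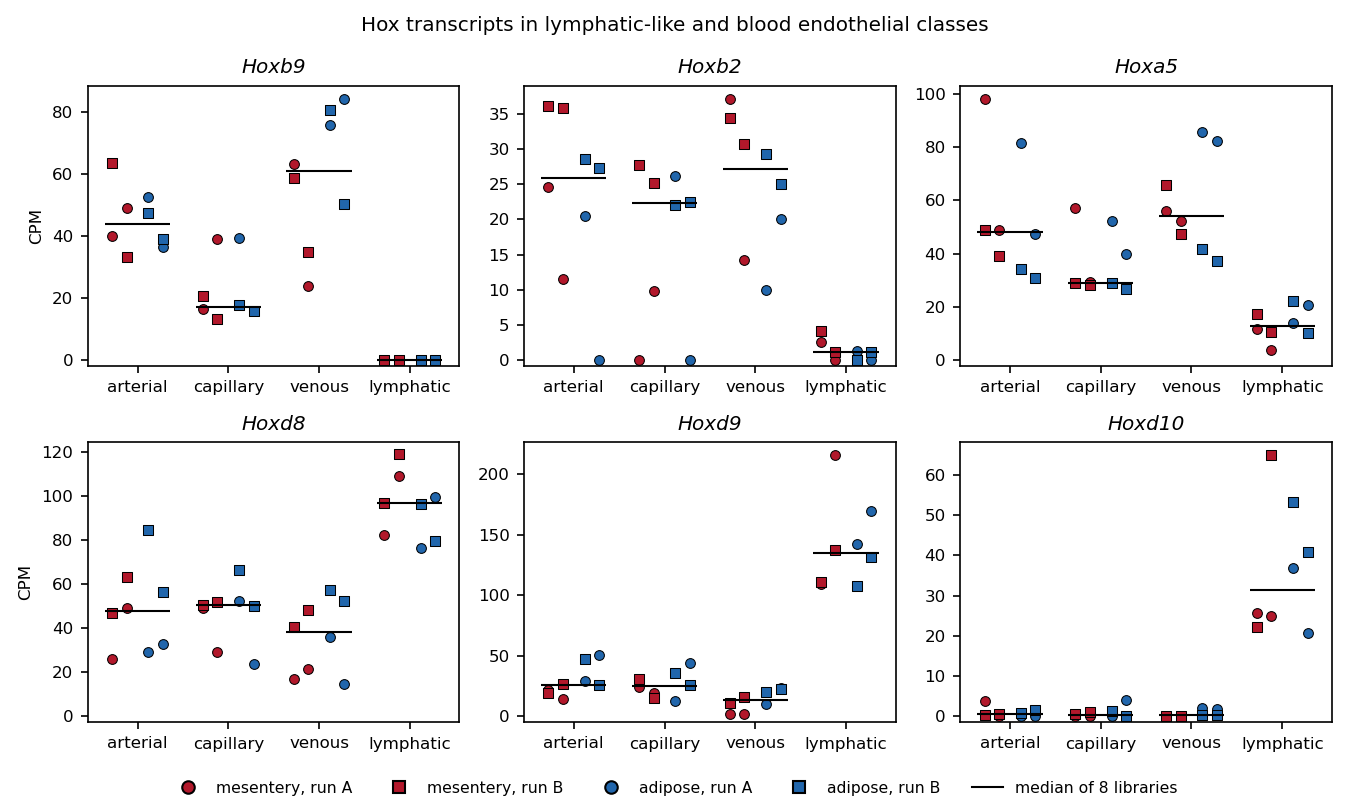
CPM per library of 6 Hox genes in arterial-like, capillary-like, venous-like and lymphatic-like cells, with red for mesentery, blue for adipose, circles for run A, squares for run B and a bar for the median of 8 libraries. Hoxb9 is at 0 in all 8 lymphatic-like sums, while Hoxd10 is at 20.7 to 64.8 CPM there and at 4.0 CPM or less in the blood classes.

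The 250 bases before the start of Hoxd10, Hoxd9 and Hoxd8 are shown because these neighbours were all higher in lymphatic-like than in blood classes. They are given 5′ to 3′ from RefSeq's promoter table (GRCm38.p6, plus strand), for Hoxd10 at chr2:74691641-74691890, for Hoxd9 at chr2:74697513-74697762 and for Hoxd8 at chr2:74704365-74704614. Capitals mark the nuclear receptor half-site AGGTCA, searched on both strands, one part of the elements through which retinoic acid receptors bind.
Hoxd10: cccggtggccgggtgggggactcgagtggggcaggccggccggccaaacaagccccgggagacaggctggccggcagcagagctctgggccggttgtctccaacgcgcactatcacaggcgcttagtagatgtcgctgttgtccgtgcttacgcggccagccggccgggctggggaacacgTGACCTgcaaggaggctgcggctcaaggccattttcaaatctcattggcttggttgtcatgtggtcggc
Hoxd9: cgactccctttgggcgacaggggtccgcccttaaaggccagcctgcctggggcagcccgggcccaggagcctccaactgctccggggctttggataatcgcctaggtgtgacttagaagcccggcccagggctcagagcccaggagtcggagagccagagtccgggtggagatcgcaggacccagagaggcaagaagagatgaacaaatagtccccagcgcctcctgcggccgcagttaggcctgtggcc
Hoxd8: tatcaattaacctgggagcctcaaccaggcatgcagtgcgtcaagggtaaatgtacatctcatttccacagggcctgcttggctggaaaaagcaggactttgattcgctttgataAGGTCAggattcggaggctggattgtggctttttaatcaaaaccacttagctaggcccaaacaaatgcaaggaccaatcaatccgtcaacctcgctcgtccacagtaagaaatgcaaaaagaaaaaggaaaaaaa
The half-site lies on the other strand 69 bases before the start of Hoxd10 and on the given strand 135 bases before that of Hoxd8, and the Hoxd9 window does not hold it. It was present in 14.0% of all 32851 windows of this length and in 6 of the 24 windows of Hox genes. RefSeq's table matched 22 of the 39 members. Its Hoxd9 window runs past the gene start at 74697727 in the GENCODE M21 annotation. GC content was 65.6% before Hoxd10, 65.2% before Hoxd9 and 44.4% before Hoxd8, beside a median of 52.4% over all windows. A match of these letters is a description and not a bound site.

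Within the blood classes the levels were graded rather than exclusive. Hoxb9 had the order venous-like, arterial-like, capillary-like by median (60.9, 43.8 and 17.1 CPM), and the ranges of all 3 overlapped. Hoxa5 had the same order (54.2, 48.0 and 29.1 CPM), and neighbours in that order overlapped. Hoxb8 and Hoxb5 were highest in capillary-like cells by median (44.4 and 31.04 CPM), with overlap of all blood classes. Among the 4 venous-like clusters pooled Hoxb9 ranged from 40.6 to 119.6 CPM. Its highest level was in a cluster with Ccn2 and Slco1a4 among its leading genes, 487 of whose 500 cells came from adipose.

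**Figure D3:**
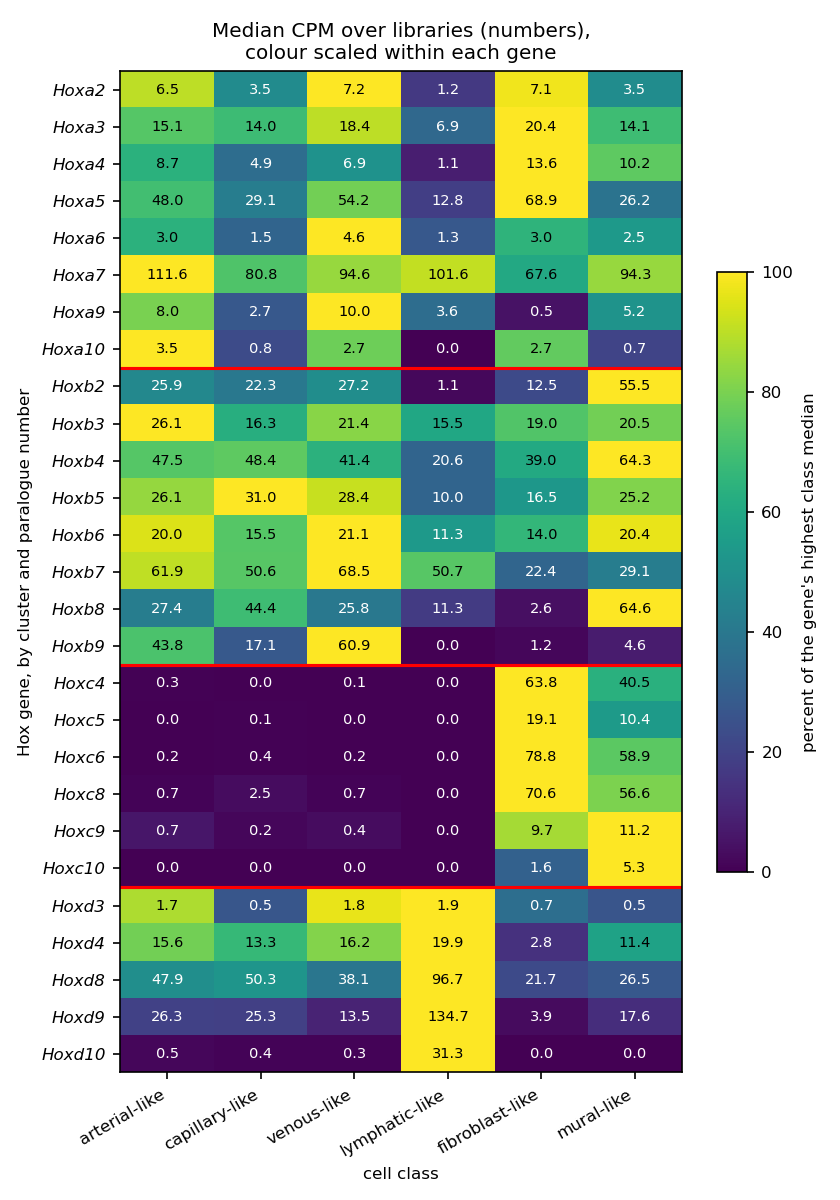
Median CPM over libraries (number in each field) of the Hox genes reported here with a class median of at least 1 CPM, by class, with colour scaled to the highest class median of each gene and red lines between Hox clusters. Of the 6 classes drawn, Hoxd8 to Hoxd10 peak in lymphatic-like cells and the Hoxc genes in fibroblast-like or mural-like cells, while Hoxb9 is at 60.9 CPM in venous-like and 0 in lymphatic-like cells.

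By class, the tissue and diet tests of arterial-like, capillary-like, venous-like and lymphatic-like cells called no Hox gene without the block. Over these tests and those of all endothelial cells, 18 comparisons in total, 13 of 357 tests of Hox genes (3.64%) had an unadjusted p under 0.05, against 1.85% of all tests. DESeq2, with and without the block, and limma-voom also called none of them, with 21, 4 and 16 unadjusted p-values under 0.05. Blocking on the run, edgeR gave calls for 4 of the 357, in 3 comparisons, and 10.4% had an unadjusted p under 0.05 against 6.92% of all tests. The genes behind these 4 calls were chosen for the following paragraphs after their values had been seen.

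In arterial-like cells, Hoxa10 and its neighbour Hoxa9 were highest in mesentery on chow. Hoxa10 was at 9.05 and 23.4 CPM in chow mesentery (runs A and B) and at 5.76 and 3.38 CPM in high fat mesentery. In adipose it was at 2.92 and 1.61 CPM on chow and 3.64 and 1.01 CPM on high fat. Only high fat mesentery of run B came below an adipose library. The tissue difference was 2.36 ± 0.65 log2 units and did not pass (edgeR, adjusted p = 1.00), and with the block it was 2.49 ± 0.58 and passed (edgeR with block, adjusted p = 0.025). The block fit no longer called it without chow adipose, high fat mesentery or high fat adipose of run B (1.82, 3.16 and 1.47 log2 units, with adjusted p = 0.70, 0.27 and 0.58 by edgeR). The background in this comparison was 0 without and 2.61% with the block.

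Hoxa9 was at 14.2 and 26.8 CPM in chow mesentery, at 11.5 and 4.73 CPM in high fat mesentery, and between 4.38 and 8.75 CPM in adipose. The diet difference in mesenteric arterial-like cells was -1.996 ± 0.51 log2 units for Hoxa9 and -2.39 ± 0.62 for Hoxa10, and both passed with the block (edgeR with block, adjusted p = 0.045 and 0.046). Neither passed without it (edgeR, adjusted p = 1.00 for both), and the background was 0 without and 2.74% with the block. In adipose no Hox gene was called (background 0 and 0.165%), and the difference between the tissues was not tested in this class. Without chow mesentery of run B the Hoxa9 difference was -0.63, and without high fat mesentery of run B it was -0.77 (edgeR with block, adjusted p = 0.92 and 0.91). It also missed the threshold without chow adipose or high fat adipose of run B (edgeR with block, adjusted p = 0.11 and 0.079). Hoxa10 without high fat mesentery of run B was at -1.12 (edgeR with block, adjusted p = 0.91), and it missed the threshold without the same adipose libraries (adjusted p = 0.11 and 0.077). Without chow mesentery of run B Hoxa10 could not be tested.

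The make-up of the class moved with these values. The arterial-like cluster led by Igf2, Gkn3 and Klk10 gave 300 and 122 of its 783 cells in chow mesentery of runs B and A and 69 and 33 in high fat mesentery. Pooled Hoxa10 was 21.5 CPM in its mesenteric and 4.5 CPM in its adipose cells. In the other arterial-like clusters pooled Hoxa10 was 6.3 CPM (22 UMIs) and 6.9 CPM (5 UMIs) in mesentery and 1.1 CPM (6 UMIs) and 0 in adipose. The order of the tissues was thus the same in each cluster, and the part of the make-up was not tested.

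In capillary-like cells of adipose, Hoxc8 was lower on high fat with the block alone. It was at 6.55 and 20.7 CPM on chow and at 0 and 1.86 CPM on high fat, while in mesentery it was at 0 and 10.3 CPM on chow and 0 and 3.098 CPM on high fat. The difference in adipose was -3.43 ± 0.79 log2 units (edgeR with block, adjusted p = 0.015) and -3.22 ± 1.06 without the block (edgeR, adjusted p = 1.00), with a background of 0.963% and 0. It was called in the 4 block fits that left out a run A library, and could not be tested without any of the 4 run B libraries, where it missed the filter on low counts. Adipocyte markers were also lower in the same samples, as their sum in adipose capillary-like cells was 144 and 5018 CPM on chow and 104 and 82.8 CPM on high fat. In adipocyte-like cells, which express these markers by definition, Hoxc8 was at 149.8 and 210.8 CPM in the run B chow libraries. The part of adipocyte RNA in the endothelial value was not tested. For the other tests in capillary-like cells the background was 0 without the block and 0.387% (tissue) and 0.736% (diet in mesentery) with it.

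**Figure D4:**
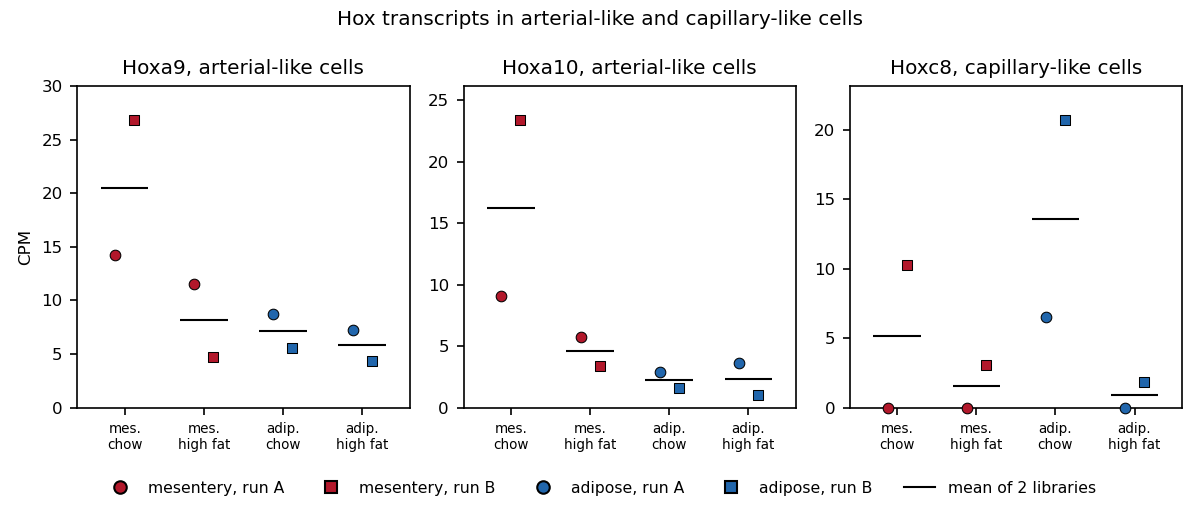
CPM of Hoxa9 and Hoxa10 in arterial-like cells and of Hoxc8 in capillary-like cells by group, with circles for run A, squares for run B and a bar for the mean of the 2 libraries. Hoxa10 is highest in chow mesentery (9.05 and 23.4 CPM), and Hoxc8 in chow adipose of run B (20.7 CPM).

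Venous-like and lymphatic-like cells gave no Hox call over all 8 libraries, with or without the block. Leaving out 1 library gave up to 2 calls for tissue in venous-like cells, in the block fit without high fat adipose of run B. In venous-like cells the background was 0.0183% (tissue) and 0 (both diet tests) without the block, and 2.06%, 0.183% and 0.101% with it. The nearest to a call was Hoxb9, lower in mesentery by -0.67 ± 0.19 log2 units (edgeR with block, adjusted p = 0.12). The venous-like class was not the same mixture in both tissues. Its cluster led by Adgrg6 and Selp came mostly from mesentery, and the one with Ccn2 and Slco1a4, where pooled Hoxb9 was highest, mostly from adipose. The part of this make-up was not tested. In lymphatic-like cells the background was 0.0115% and 0, and 2.1%, 2.47% and 0.103% with the block. Their Hoxd pattern did not separate the tissues: Hoxd9 was at 109.4 to 215.5 CPM in mesentery and 107.7 to 169.2 CPM in adipose.

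Fibroblast-like cells that passed the sort were the class in which Hox genes separated the tissues. They were 1128 cells, 44 to 338 per library, and their tests were added after the data had been seen. Hoxa5 was at 9.4, 13.5, 20.8 and 26.1 CPM in mesentery (chow A, chow B, high fat A, high fat B) and at 212.1, 133.2, 125.5 and 111.7 CPM in adipose. Hoxa3 was at 0, 5.8, 6.9 and 6.5 CPM in mesentery and at 63.9, 48.3, 50.2 and 33.9 CPM in adipose. In both genes each mesentery library was below each adipose library by a wide gap. Hoxa4, which lies between them, was at 4.7, 1.9, 0 and 3.3 CPM in mesentery and at 35.4, 24.97, 22.6 and 22.6 CPM in adipose. Hoxc6 was at 37.6, 77.2, 34.6 and 42.4 CPM in mesentery and at 112.9, 171.5, 80.3 and 178.2 CPM in adipose, again without overlap though with a narrow gap.

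Of 15 Hox genes tested, these 4 were called lower in mesentery, and none higher, where 3.45% of all 7886 genes were called lower. The log2 differences were -3.15 ± 0.33 for Hoxa5 (edgeR, adjusted p = 0.0015), -3.21 ± 0.50 for Hoxa3 (edgeR, adjusted p = 0.0076), -3.46 ± 0.62 for Hoxa4 (edgeR, adjusted p = 0.014) and -1.56 ± 0.35 for Hoxc6 (edgeR, adjusted p = 0.032). With the block Hoxc4 (-1.11 ± 0.25), Hoxc8 (-0.98 ± 0.26) and Hoxd8 (-1.41 ± 0.40) were called too (edgeR with block, adjusted p = 0.0075, 0.023 and 0.032), over a background of 7.35%. With limma-voom Hoxa4 and Hoxc6 missed the threshold (limma, adjusted p = 0.054 and 0.058). With doublets kept Hoxa3 (-1.97) and Hoxc6 (-0.65) were not called (edgeR, adjusted p = 0.38 and 0.41), and with a mitochondrial limit of 20% Hoxc6 (-0.55) was not (edgeR, adjusted p = 0.58). Hoxa4 in both settings and Hoxa3 in the second were not among the genes tested, so that Hoxa5 alone stayed called there (edgeR, adjusted p = 0.011 and 0.022). The median log2 difference was -0.93 over the 15 genes and -0.04 over all genes tested. Counting libraries alone, 9 of 26 Hox genes with a UMI in at least 4 of them had all mesentery libraries below all adipose libraries and none above, beside 6.14% of all genes below. These were Hoxa2 to Hoxa6, 5 neighbours in 1 run of the chromosome, with Hoxc4, Hoxc6, Hoxc8 and Hoxd8.

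The pattern stopped at Hoxa7. It was at 75.2, 58.9, 83.1 and 26.1 CPM in mesentery and at 88.4, 59.9, 75.3 and 49.5 CPM in adipose fibroblast-like cells, with overlap. Hoxa9 and Hoxa10 were at 6.8 CPM or less in all of these libraries. Hoxb4 (13.9 to 58.7 CPM in mesentery, 35.4 to 62.5 CPM in adipose) and Hoxb7 (13.0 to 63.7 and 5.4 to 36.6 CPM) overlapped as well. Leaving out 1 library without the block, Hoxa5 was called in all 8 fits. Hoxa3 was not called without high fat mesentery of run B (-3.16, adjusted p = 0.054 by edgeR). Hoxa4 was not called without chow mesentery or high fat adipose of run B (-2.97 and -3.48, adjusted p = 0.11 and 0.068 by edgeR) and could not be tested without chow adipose of run A. Hoxc6 was called in 2 of the 8 fits, those without chow adipose or high fat adipose of run A, and in the other 6 it was between -1.84 and -1.26. Diet called none of the 15 in either tissue (background 0 in both, and 0.33% and 0.558% with the block).

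**Figure D5:**
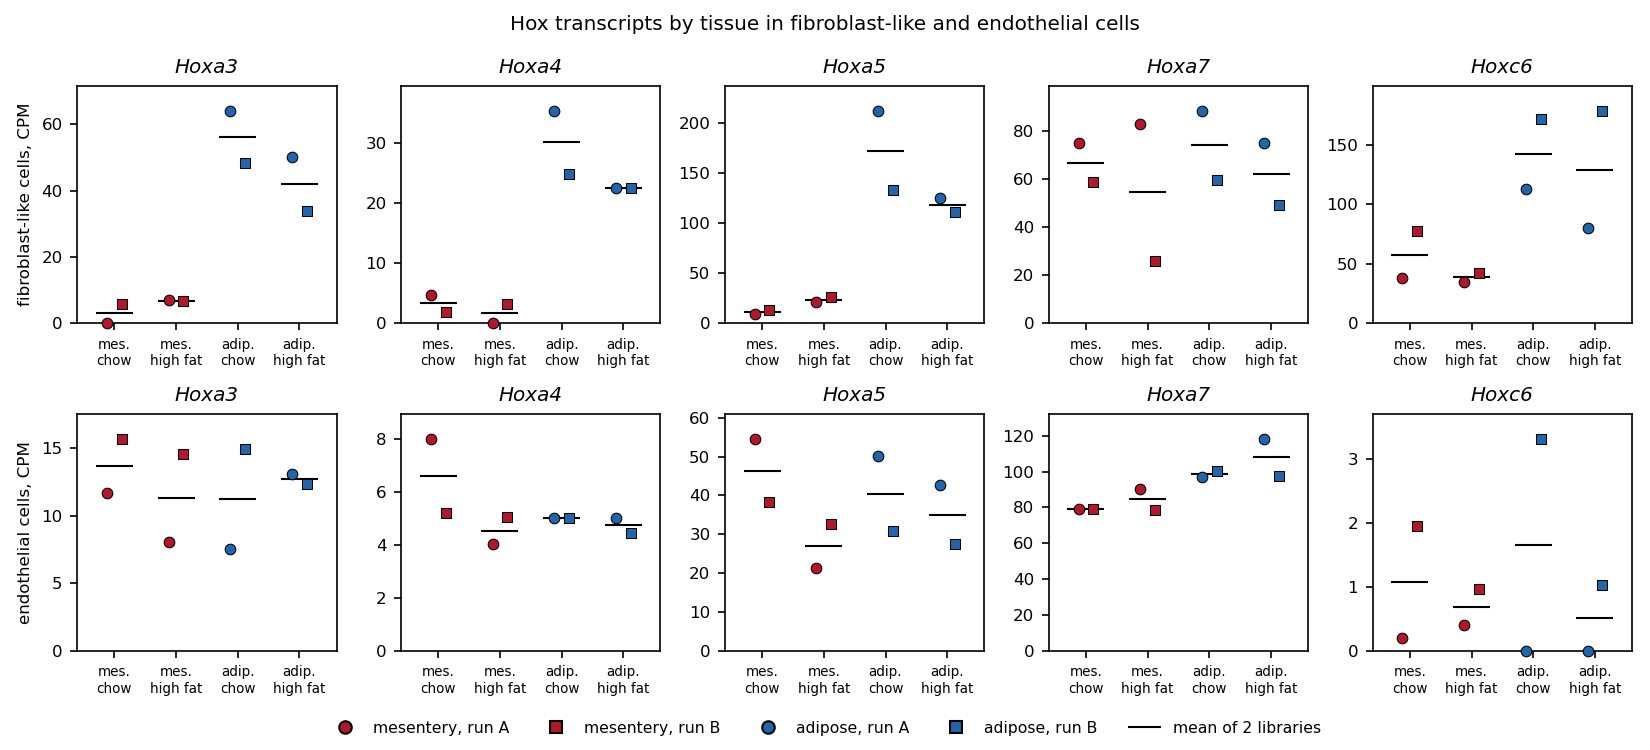
CPM of 5 Hox genes in fibroblast-like cells (upper row) and endothelial cells (lower row) by group, with circles for run A, squares for run B, a bar for the mean of the 2 libraries and a separate scale in each panel. Hoxa5 is at 9.4 to 26.1 CPM in mesenteric and 111.7 to 212.1 CPM in adipose fibroblast-like cells, but at 21.3 to 54.5 and 27.5 to 50.1 CPM in endothelial cells.

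Endothelial cells of the same libraries lacked this difference, and the contrast itself was tested in 1 fit over both classes with the library as a term. The tissue difference in fibroblast-like cells minus that in endothelial cells was -3.03 ± 0.32 log2 units for Hoxa5 (edgeR, adjusted p = 0.0024), -3.37 ± 0.63 for Hoxa3 (edgeR, adjusted p = 0.026) and -3.63 ± 0.69 for Hoxa4 (edgeR, adjusted p = 0.029). These 3 of 26 Hox genes tested were called, all in 1 direction, and 1.33% of all 12039 genes were called in it. For Hoxa7 the value was -0.01 ± 0.37 (edgeR, adjusted p = 1.00). Hoxa5 remained called without any 1 library, whereas Hoxa3 and Hoxa4 were called in some of those fits only.

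The fibroblast-like class was not the same mixture in both tissues. Of its 3 clusters, the one led by Slc38a5, Apod and C7 had 352 cells, all from adipose, and the one led by Sfrp5, Igfbp6 and Lypd2 had 242 of 250 cells from mesentery. The third, led by Clec3b, Lum and Dpt, held 139 mesenteric and 387 adipose cells. Pooled Hoxa5 was 217.4 CPM in the adipose cluster and 5.7 CPM in the mesenteric cells of the mesenteric one. Within the shared cluster it was 32.4 CPM (21 UMIs) in mesenteric and 81.4 CPM (96 UMIs) in adipose cells. Pooled Hoxa3 in the shared cluster was 7.7 CPM (5 UMIs) and 23.7 CPM (28 UMIs). The order of the tissues was therefore the same inside the shared cluster, at a smaller ratio than across the class.

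Markers of other cell types moved with tissue in this class. The 9 mural markers summed to 282 to 457 CPM in mesenteric and 3699 to 5372 CPM in adipose fibroblast-like cells, and 5 of them were raised in the adipose cluster. The 8 fibroblast markers summed to 25625 to 37527 CPM in mesentery and 10920 to 29327 CPM in adipose. The 7 mesothelial markers summed to 376 to 1278 CPM in mesentery and 84.3 to 750 CPM in adipose, and all 7 were raised in the shared cluster together with all 8 fibroblast markers. In mural-like cells themselves Hoxa5 was at 107.9 and 136.6 CPM in the 2 adipose libraries of run A and at 19.3 to 29.4 CPM in the 4 libraries of run B. In run A the mural-like level was below that of adipose fibroblast-like cells on chow and above it on high fat. In run B the mural-like levels were below the 133.2 and 111.7 CPM of adipose fibroblast-like cells. The part of any of these markers in the tissue difference was not tested.

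The stretches before Hoxa5, called in the tissue test, and Hoxa7, where the pattern stopped, are shown for comparison. They are the 250 bases before the start in RefSeq's table (GRCm38.p6, minus strand, given 5′ to 3′), for Hoxa5 at chr6:52204588-52204837 and for Hoxa7 at chr6:52218574-52218823.
Hoxa5: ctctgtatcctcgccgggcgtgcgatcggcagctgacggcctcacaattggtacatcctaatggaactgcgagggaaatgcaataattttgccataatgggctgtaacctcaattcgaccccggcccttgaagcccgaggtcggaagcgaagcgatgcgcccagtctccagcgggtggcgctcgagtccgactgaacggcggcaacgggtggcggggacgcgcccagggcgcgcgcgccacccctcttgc
Hoxa7: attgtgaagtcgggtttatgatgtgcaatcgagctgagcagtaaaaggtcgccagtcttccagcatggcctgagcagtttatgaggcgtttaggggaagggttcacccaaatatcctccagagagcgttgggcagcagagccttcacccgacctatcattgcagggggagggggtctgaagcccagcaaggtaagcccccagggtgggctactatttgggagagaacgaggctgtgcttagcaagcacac
No capitals appear, because neither window holds any of the motifs searched on both strands: AGGTCA, the homeodomain core TAATTA (in 4.84% of all windows), the Hox and Pbx pair TGATTNAT (2.82%) and the TATA box TATAAA (12.4%). GC content was 63.6% before Hoxa5 and 54.8% before Hoxa7. In the GENCODE M21 annotation the Hoxa7 gene runs from 52214491 to 52221854, so RefSeq's window for it lies within the gene. The Hoxa5 window lies directly before its gene, so the windows are not like regions by that annotation.

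Hoxc genes marked the cells around the vessels more than the endothelium. Hoxc8 was at 27.7 to 171.1 CPM in fibroblast-like cells and at 44.0 to 217.0 CPM in mural-like cells, beside 0 to 20.7 CPM in capillary-like, 0 to 8.8 CPM in arterial-like and 0 to 1.3 CPM in lymphatic-like cells. By median its highest class was adipocyte-like (149.8 CPM over 3 libraries). Hoxc4 and Hoxc6 were highest in fibroblast-like cells, with class medians of 63.8 and 78.8 CPM in fibroblast-like, 40.5 and 58.9 CPM in mural-like cells and 0.413 CPM or less in each named endothelial class. Hoxc10 reached 12.5 CPM in adipocyte-like cells. Hoxc5 and Hoxc10 share exon sequence on the same strand, and 2.55% of the 31-base words in the last 500 bases of Hoxc5 also occur in another member, so their counts may not be fully separate. Hoxd3 and Hoxd4 overlap in the same way, and Hoxa6 shared 5.96% of its words, most with Hoxb4. The last 500 bases of Hoxa3, Hoxa4, Hoxa5 and Hoxc6 shared none. Words from the ends of Hoxd4 and Hoxb7 did occur in Hoxa3 and Hoxa5 (0.39% and 0.37% of their words shared). Hoxa3 also overlaps exons of Gm28308 on its strand, and Hoxd10 those of Gm28309.

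Several members differed between the runs. Between run A and run B the 4 libraries of each run did not overlap for Hoxb3, Hoxb5, Hoxb6 and Hoxb8 among the Hoxb genes. The same held for Hoxc5, Hoxc6, Hoxc8, Hoxc10, Hoxd3 and Hoxd4, and all of these were higher in run B. Hoxc10 rests on 11 UMIs, at 0 in run A and 0.061 to 0.236 CPM in run B. Endothelial sums held 1990500 to 5136666 UMIs in run A and 12507962 to 25436470 in run B. A level of 0 in run A therefore says little for Hoxc10. The share of all genes without overlap between the runs is not given here, so nothing particular to Hox genes follows. Hoxb8 was at 9.2 to 14.1 CPM in run A and 35.0 to 65.8 CPM in run B. Its pooled level was 69.9 CPM in capillary-like and 10.9 CPM in lymphatic-like cells, classes whose shares differ between the runs. The part of that shift in the run difference was not tested. Hoxd4 was at 0 to 1.6 CPM in run A and 28.4 to 33.8 CPM in run B. The gene list of run A holds a second Ensembl identifier under the symbol Hoxd4, with 1 to 4 UMIs in each of its libraries. The file headers name different software versions for the runs (3.0.2 and 5.0.0), and Hoxd4 overlaps Hoxd3 and Gm28230 on its strand. Run, software and gene list cannot be told apart. Tissue and diet are balanced over the runs, so the comparisons above hold a run of each kind on each side.

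Of the TALE genes, which encode partners of Hox proteins, 2 were called between tissues, Meis2 in arterial-like and Pknox2 in fibroblast-like cells. Over both diets none of 8 TALE genes tested was called between tissues in endothelial cells by either fit. Meis2 in arterial-like cells was at 137.0, 127.5, 77.8 and 46.9 CPM in mesentery (chow A, chow B, high fat A, high fat B) and at 32.1, 18.4, 25.5 and 8.4 CPM in adipose. All mesentery libraries were above all adipose libraries, and the difference of 2.43 ± 0.22 log2 units passed with the block (edgeR with block, adjusted p = 7.0e-06) but not without it (2.38 ± 0.44, edgeR, adjusted p = 1.00). Meis2 was 1 of 6 TALE genes tested in arterial-like cells, where 2.61% of all genes were called with the block and 0 without it. Over all endothelial cells Meis2 was at 45.0 to 244.9 CPM in mesentery and 21.1 to 101.0 CPM in adipose and did not pass (1.54 ± 0.41, edgeR with block, adjusted p = 0.20). Meis1 was at 4.4 to 9.0 and 2.3 to 4.8 CPM (0.81 ± 0.30, edgeR with block, adjusted p = 0.37).

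Pknox2 in fibroblast-like cells was at 0 to 15.4 CPM in mesentery and 17.0 to 31.6 CPM in adipose. It was the 1 of 6 TALE genes tested there that was called lower in mesentery, by -3.83 ± 0.86 log2 units (edgeR, adjusted p = 0.042), and it was called with the block too (edgeR with block, adjusted p = 0.016). Of all genes, 3.45% were called lower there without the block and 7.35% with it.

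Of 28 Polycomb and Trithorax genes tested in endothelial cells, none was called by either fit, and their median log2 difference was -0.04. Of 10 retinoid and Cdx genes tested, Cyp26b1, which breaks down retinoic acid, was called higher in mesentery with the block. It was at 119.7, 242.7, 27.7 and 21.3 CPM in mesentery and 31.6, 26.3, 6.0 and 3.8 CPM in adipose (chow A, chow B, high fat A, high fat B). Each mesentery library was above the adipose library of its own diet and run, and the log2 difference was 2.55 ± 0.27 (edgeR with block, adjusted p = 0.026). Without the block it was 2.49 ± 0.29 and did not pass (edgeR, adjusted p = 0.38). Of all genes, 0 were called in this comparison without the block and 0.518% with it. In fibroblast-like cells Aldh1a1 and Aldh1a3, which make retinoic acid, were lower in mesentery by -2.13 ± 0.39 and -2.76 ± 0.59 log2 units (edgeR, adjusted p = 0.015 and 0.026). They were 2 of 10 genes of this list tested there, beside 3.45% of all genes called lower. With the block 2 of the 10 were called lower and 1 higher, and 7.35% of all genes were called lower.

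Of 16 other positional and mesodermal factors tested in endothelial cells, Nkx2-3 and Gata6 were called, both with the block alone, where 0.518% of all genes were. Nkx2-3 was at 191.8, 109.6, 66.6 and 33.2 CPM in mesentery and at 0 to 1.0 CPM in adipose (edgeR with block, adjusted p = 0.0045). So a homeobox gene outside the Hox clusters separated the endothelium of the tissues without overlap. Gata6 was at 140.4, 80.7, 58.6 and 30.4 CPM in mesentery and at 47.1, 24.3, 60.8 and 20.4 CPM in adipose (0.95 ± 0.14 log2 units, edgeR with block, adjusted p = 0.046). In fibroblast-like cells 5 of 12 such factors were called without the block, 3 higher and 2 lower in mesentery, beside 3.07% of all genes called higher and 3.45% called lower. Meox2 was higher (159.8 to 318.5 CPM in mesentery, 1.4 to 22.6 CPM in adipose), with a difference of 3.85 ± 0.53 log2 units (edgeR, adjusted p = 0.0046). Tbx3 was lower (0 to 8.7 and 53.7 to 220.3 CPM), with -5.13 ± 0.67 (edgeR, adjusted p = 0.0040). These lists were written for tissue position in general and, like the members, with earlier results of these data known.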

How the data were processed

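Gene by barcode UMI counts, 1 matrix per library, are used as deposited by the authors: raw counts, with software versions 3.0.2 (run A) and 5.0.0 (run B) per the file headers, and mm10 and Seurat 4.3.0 per the submitters' processing notes. Libraries held 1352 to 6218 barcodes and 3461360 to 36779289 UMIs. Cells with at least 500 UMIs, 300 genes and at most 10% mitochondrial UMIs were kept, and doublets were called from simulated doublets at an expected 0.8% per 1000 cells. Clustering used 2000 variable genes, 30 components and 20 neighbours at resolution 1 (leidenalg 0.10.2), without Hox, Hox cluster noncoding, mitochondrial or ribosomal genes. A class needed 3 listed markers raised 1.5-fold and a mean log2 fold of 0.5, limits chosen once the clusters were known.

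Counts were summed per library and class and tested with edgeR 4.0.16 (quasi-likelihood, TMM, low-count filter, 1 mean per group, Benjamini-Hochberg adjustment over all genes tested, threshold 0.05), and tested on simulated data. Alternatives were the run as a block, DESeq2 1.42.0, limma 3.58.1 (voom), other size factors, no filter, doublets kept, a 20% mitochondrial limit, resolution 2 and leaving out each library. The labels call the runs independent repeats, and deviations of same-run libraries correlated at 0.30 to 0.75 in every class tested, so the runs pair the samples. Fits of fibroblast-like cells and over both classes were added after the data had been seen. The members and lists were chosen with earlier results of these data known. Given in full were members called in a comparison of all endothelial cells by either edgeR fit (there were none) and the 2 of each Hox cluster with the highest mean endothelial CPM. From the other lists at most 4 called genes each were named, with Nkx2-3, Meis1 and Meis2 always given. Some genes of these lists, 1 member among them, entered all fits and sums but are not reported here. Other genes were named after their values were seen.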

Additional observations from a re-analysis of the deposited data

Results flagged for a closer look

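The tissue difference of 3 Hox genes differed between fibroblast-like and endothelial cells by a test of that difference. Mesentery minus adipose, fibroblast-like minus endothelial, it was -3.03 log2 units for Hoxa5, -3.37 for Hoxa3 and -3.63 for Hoxa4.

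Identifiers present in the gene list of 1 run alone stayed out of every comparison. Among them Hoxaas2 reached 102 UMIs in a library, Hoxa11os 6 and the second identifier of Hoxd4 4, each above the 3 counts that a count of 0 allows.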

How the results depend on the processing

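Of 533 counts of Hox genes called under an alternative, 498 stayed within 1.5 times the reported count and 35 moved. All reported counts were 0 except those for tissue in fibroblast-like cells and in the fit over both classes. Where the count was 0, few or no genes of any kind were called, so a count that stayed at 0 says little. With the replicate block, the paired fit, 1 Hox gene was called for tissue and 2 for diet in mesentery in arterial-like cells, 1 for diet in adipose in capillary-like cells and 7 for tissue in fibroblast-like cells, and the block changed no other count. In fibroblast-like cells limma-voom called 2, and keeping doublets or a 20% mitochondrial limit 1 each. Leaving out 1 library, with or without the block, gave 0 to 1 calls for tissue, 0 to 3 for tissue on chow, 0 to 3 for diet in mesentery and 0 to 1 for diet in adipose in endothelial cells. It gave 0 to 3 for tissue and 0 to 2 for diet in mesentery in arterial-like cells, 0 to 1 for diet in adipose in capillary-like cells, 0 to 2 for tissue in venous-like cells, 2 to 7 in fibroblast-like cells and 1 to 3 in the fit over both classes. The endothelial tissue difference changed sign for Hoxa5 with limma-voom (0.056) and on leaving out a library (-0.41 to 0.24). Leaving out a library also turned it for Hoxb4 (-0.021 to 0.60), Hoxc8 (-4.66 to 2.14), Hoxc6 (-1.47 to 3.13) and Hoxd9 (-0.93 to 0.34), and DESeq2 with the block for Hoxc6 (0.023). The cause was not tested. Low counts limit the Hoxc genes in endothelial cells.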

Other observations

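Noncoding transcripts of the Hox clusters were also uneven over the endothelial classes. Hotairm1, of the Hoxa cluster, was at 1.27 to 12.7 CPM in lymphatic-like cells and at 35.0 to 123.3 CPM in arterial-like cells, without overlap, but in capillary-like cells it went down to 9.77 CPM, within the lymphatic-like range. Halr1 had 3 UMIs in lymphatic-like cells of all libraries together and 437 in arterial-like cells, while in venous-like cells (0.34 to 22.2 CPM) its range overlapped with the lymphatic-like one (0 to 1.27 CPM). Hoxd3os1 was at 20.6 to 89.1 CPM in lymphatic-like and 7.28 to 69.6 CPM in arterial-like cells, with overlap. No UMI of Hotair was found in any endothelial class. These class levels are a description without a test. With the run as a block, Halr1 was called higher on high fat in mesentery in arterial-like, capillary-like and venous-like cells (background 2.74%, 0.736% and 0.183%). Hoxd3os1 was called lower in mesentery in fibroblast-like cells (background 7.35% called lower). Without the block neither was called, and in all endothelial cells neither fit called any of these transcripts.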
